A study of Rattus norvegicus with 12 samples.

Results

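The aryl hydrocarbon receptor group comprised 6 rat genes: the receptor gene Ahr (Entrez 25690), its partner gene Arnt (25242), the repressor gene Ahrr (498999) and the target enzyme genes Cyp1a1 (24296), Cyp1b1 (25426) and Aldh3a1 (25375). They were found by symbol among the 16924 genes counted, and all 6 were present and passed the filter on low counts. The group was chosen with the levels of these genes in all 4 culture groups already known. Their levels and changes are therefore given as a description, and no test of them is claimed. Genes of the pathway outside the group were tested, but their lists were also chosen with earlier results of these data known. Their adjusted p carry that limit.

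RNA was sequenced from a cardiac progenitor cell line of the rat that derives from 1 clone, in 12 libraries. The groups were cells plated on fibronectin, cells plated on laminin, cells plated on dishes with no coating, and cells in suspension, with 3 libraries each. All cells had been grown in F12 medium with 10% fetal bovine serum, leukemia inhibitory factor, basic fibroblast growth factor, erythropoietin and glutathione, and the labels name no genetic change in any group. Plated cells were sparse and were kept for 2 h in 0.1% serum; the labels attach the same protocol to the suspension libraries without saying how those cells were held. Replicate numbers 1, 2 and 3 equal the batches named in the labels, so the libraries of 1 number are paired. The spread is that between batches of a single clone and not between animals.

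The receptor is a transcription factor of the bHLH-PAS family that waits in the cytoplasm in a complex with the chaperone HSP90. When a ligand such as dioxin or a tryptophan derivative binds it, it enters the nucleus, pairs with ARNT and binds xenobiotic response elements, whose core letters are GCGTG. Its best known targets are the CYP1 family of cytochrome P450 enzymes, which oxidise the ligands, and AHRR, a repressor that competes for ARNT and closes a feedback loop. In zebrafish embryos, dioxin acting through the receptor malforms the heart.

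RefSeq promoter windows of build GRCr8 were at hand for 4 of the 6 genes, namely Ahrr, Cyp1b1, Arnt and Ahr. The windows of 3 genes are shown to place the core letters GCGTG, searched on both strands and written in capitals, before genes that were higher on every surface (Ahrr, Cyp1b1) and before the gene that was lower (Ahr). Each line gives the 250 bases before the annotated start, read in the direction of the gene.
Ahrr, chr1:30821969-30822218, plus strand: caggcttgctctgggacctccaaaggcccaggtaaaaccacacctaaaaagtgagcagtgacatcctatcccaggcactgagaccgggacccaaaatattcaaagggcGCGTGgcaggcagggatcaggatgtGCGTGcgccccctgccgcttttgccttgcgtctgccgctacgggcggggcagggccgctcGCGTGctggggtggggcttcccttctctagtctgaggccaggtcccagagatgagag
Cyp1b1, chr6:21094315-21094564, plus strand: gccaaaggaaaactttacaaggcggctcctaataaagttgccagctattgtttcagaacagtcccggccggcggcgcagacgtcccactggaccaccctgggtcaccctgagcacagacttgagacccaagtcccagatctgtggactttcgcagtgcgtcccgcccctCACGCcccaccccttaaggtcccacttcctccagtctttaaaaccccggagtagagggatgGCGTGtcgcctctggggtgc
Ahr, chr6:57998902-57999151, minus strand: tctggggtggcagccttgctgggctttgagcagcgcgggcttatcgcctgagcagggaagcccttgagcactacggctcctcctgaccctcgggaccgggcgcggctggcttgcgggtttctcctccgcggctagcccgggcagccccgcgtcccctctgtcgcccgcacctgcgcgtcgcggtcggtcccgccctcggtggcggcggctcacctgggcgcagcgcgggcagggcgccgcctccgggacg

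The Ahrr window held the core 3 times, the Cyp1b1 window 2 times, once as its reverse complement CACGC, the Arnt window 1 time and the Ahr window 0 times. A longer form, TNGCGTG, which contains the core, was present once in Ahrr, at 57 to 53 bases before the start for its core, and once in Cyp1b1, at 20 to 16 bases before the start. Of 33469 windows of this length, 25.9% held GCGTG and 4.09% held TNGCGTG on either strand. These are matches of letters and do not show that the receptor was bound there.

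Total counts ran from 15875160 to 20852160 per library. Gata4, a cardiac transcription factor, averaged 88.4 CPM, the count scaled to an equal library total, and Kit, the receptor by which such progenitors are isolated, 3.09 CPM, whereas the cardiac progenitor genes Isl1 and Nkx2-5 had 0 counts over the 12 libraries and Tbx5 had 1. Summed over 4 fibroblast and mesenchyme markers (Vim, Col1a1, Pdgfra, Thy1), the libraries held 6726 to 6928 CPM on fibronectin, 6599.7 to 7143 CPM on laminin and 6483 to 7019 CPM with no coating, against 5846 to 6456 CPM in suspension, and Thy1 had 18 counts in all. Vim carried most of this sum, with means of 5320.1, 5484 and 5108 CPM on fibronectin, laminin and no coating and 4589 CPM in suspension, whereas Col1a1 averaged 1171, 1016 and 1220.1 CPM on these surfaces and 1251 CPM in suspension. Summed over 4 cardiomyocyte markers the range was 3.97 to 5.49 CPM on fibronectin, 5.08 to 5.89 on laminin and 4.65 to 6.32 with no coating, against 1.62 to 2.17 in suspension. Nearly all of the cardiomyocyte sum was Tnnt2, a troponin gene, whereas the myosin genes Myh6 and Myh7 had 1 and 0 counts. Both sums were thus higher in all plated libraries, and their part in the changes below was not tested. Markers of endothelium and blood stayed at or below 1.33 CPM in every library and overlapped between plated cells and suspension, and the liver genes Alb and Ttr had 1 and 0 counts. Replicate 3 stood apart among plated cells: its scores on the leading principal component of log2 CPM were 20.8 on fibronectin, 35.0 on laminin and 41.9 with no coating, and those of the other plated libraries ran from -7.04 to 1.46. The suspension libraries scored -30.8 to -27.8. Values without replicate 3 are therefore given beside the results it moves. In bulk libraries such as these, a change in the number of cells that express a gene and a change in RNA per cell cannot be told apart.

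Plated cells were compared with suspension to find how attachment to each surface goes with the receptor and its targets. The receptor's own RNA was lower on every surface while Ahrr, Cyp1a1, Cyp1b1 and Aldh3a1 were higher on every surface, and Arnt stood close to its level in suspension. By edgeR's quasi-likelihood fit to all 10020 genes that passed the filter, at a Benjamini-Hochberg adjusted p of 0.05, 4 of the 6 genes were called higher on fibronectin, where 6.61% of all genes tested were called higher and 3.06% lower. On laminin 4 genes were called higher and 1 lower, against 12.1% and 6.96% of all genes tested. On dishes with no coating 4 were called higher and 1 lower, against 8.48% and 4.1% of all genes tested. The 3 comparisons share the suspension libraries, and because the group was chosen on these contrasts nothing is read from the counts. The share of all genes whose plated and suspended libraries do not overlap is not given here. Such separation is therefore only described below. With the replicate number as a block, 4 genes were called higher and 1 lower on fibronectin, 4 and 2 on laminin, and 4 and 1 with no coating. The shares of all genes were then 16.6% higher and 12.1% lower on fibronectin, 22.4% and 20.8% on laminin, and 20.1% and 18.7% with no coating. The median log2 change of the 6 genes was 1.001 on fibronectin, 1.05 on laminin and 0.997 with no coating, against 0.0010, -0.0091 and 0.0030 over all genes tested.

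**Figure D1:**
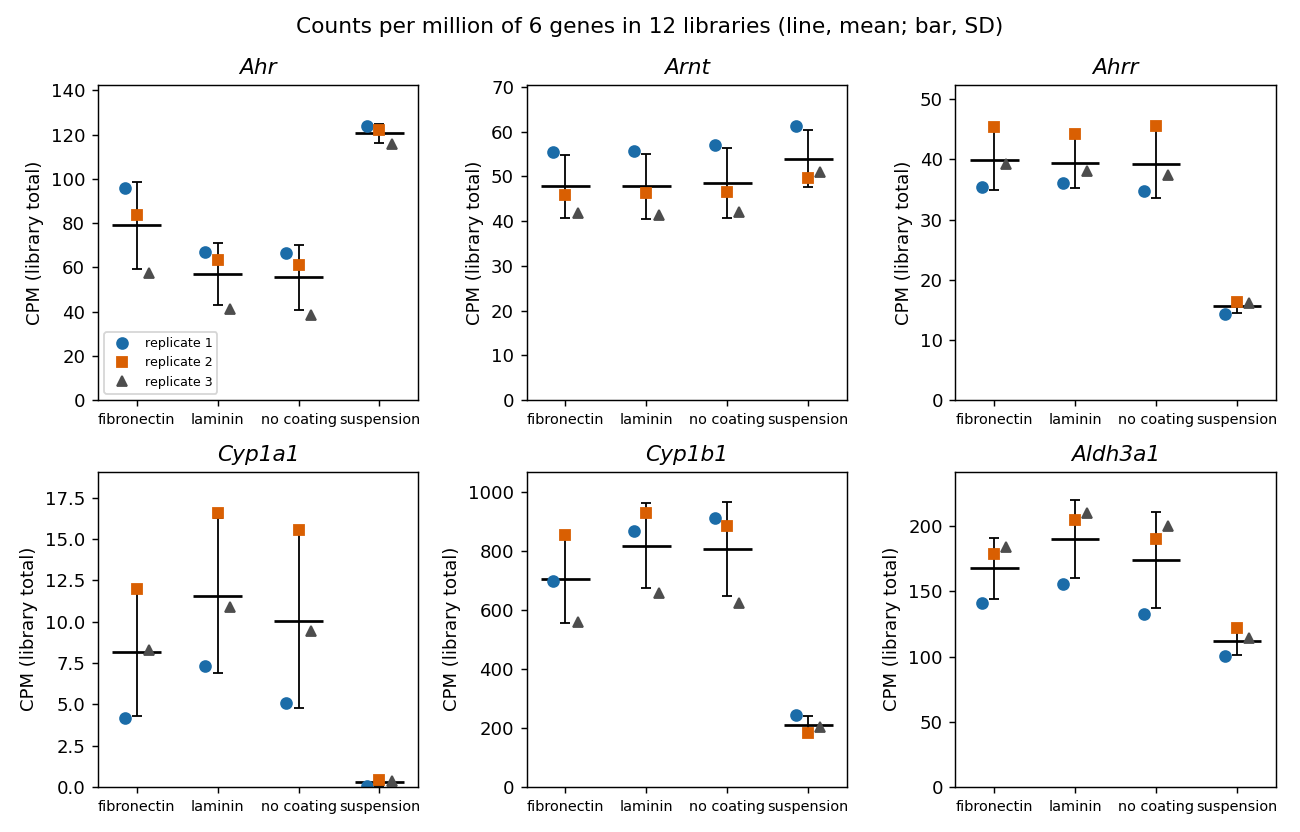
CPM from library totals (y axes, from 0) of the 6 genes in cells on fibronectin, laminin and no coating and in suspension. Symbols mark replicates 1, 2 and 3, lines the mean and bars the SD of 3 libraries. Ahr was lower and Ahrr, Cyp1a1, Cyp1b1 and Aldh3a1 were higher in each of the 9 plated libraries than in any suspension library. The share of all genes that separate in this way is not given here.

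Ahr, the receptor, had 96.0, 83.6 and 57.4 CPM in replicates 1, 2 and 3 on fibronectin, 67.1, 63.2 and 41.2 CPM on laminin and 66.6, 61.2 and 38.5 CPM with no coating, against 124, 122 and 116 CPM in suspension. Every plated library lay below every suspension library, and replicate 3 was the lowest on each surface. Means were 79.0 ± 19.7 CPM on fibronectin, 57.2 ± 13.98 on laminin, 55.4 ± 14.9 with no coating and 121 ± 4.30 in suspension (SD, n = 3 each). From highest to lowest the order was suspension, fibronectin, laminin and no coating, and neighbouring surfaces in that order overlapped. The receptor transcript fell by 1.07 ± 0.26 on the log2 scale on laminin and by 1.10 ± 0.26 with no coating (± SE throughout). On fibronectin the log2 change was -0.57 ± 0.26, which did not pass in the fit without batches. With the replicate number as a block it was -0.62 ± 0.14 and passed, and without replicate 3 it was -0.41 ± 0.10 and passed. In the fit without the block, the laminin call ended when suspension 2, suspension 3 or laminin 3 was left out. The no coating call there ended when suspension 1, 2 or 3 or no coating 3 was left out. With the block the changes were -1.12 ± 0.14 on laminin and -1.15 ± 0.14 with no coating, and both passed. Within batches 1, 2 and 3 the log2 ratios to suspension were -0.37, -0.54 and -1.01 on fibronectin, -0.88, -0.95 and -1.49 on laminin, and -0.90, -0.996 and -1.58 with no coating. Batch 3 gave the largest drop on all 3 surfaces. Without it the log2 changes were -0.90 ± 0.10 on laminin and -0.91 ± 0.10 with no coating, and both passed.

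Arnt, the partner that also serves the hypoxia factors, had 55.5, 45.9 and 41.8 CPM on fibronectin, 55.7, 46.3 and 41.4 CPM on laminin and 57.1, 46.5 and 42.0 CPM with no coating, against 61.3, 49.7 and 51.0 CPM in suspension. The groups overlapped, and replicate 1 was the highest in all 4. The log2 changes from suspension were -0.14 ± 0.17 on fibronectin, -0.17 ± 0.17 on laminin and -0.13 ± 0.17 with no coating, and none was called. With the block, the laminin change was -0.18 ± 0.06 and passed. Arnt was lower than suspension in all 3 batches on every surface, by log2 ratios between -0.30 and -0.10.

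Ahrr, the feedback repressor, had 35.4, 45.3 and 39.2 CPM on fibronectin, 36.1, 44.2 and 38.1 CPM on laminin and 34.7, 45.5 and 37.4 CPM with no coating, against 14.4, 16.3 and 16.1 CPM in suspension. The lowest plated library stood far above the highest suspension library, and the surfaces overlapped each other almost fully. Means were 40.0 ± 5.01, 39.5 ± 4.201 and 39.2 ± 5.65 CPM on fibronectin, laminin and no coating, and 15.6 ± 1.07 CPM in suspension (SD, n = 3 each). The repressor transcript rose by 1.39 ± 0.13 on the log2 scale on fibronectin, 1.34 ± 0.13 on laminin and 1.35 ± 0.13 with no coating. Of the 6 genes it had the smallest SE in these 3 comparisons. Within batches its log2 ratios to suspension lay between 1.21 and 1.48.

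Cyp1a1, the P450 enzyme most used as a readout of the receptor, was nearly silent in suspension, with 1, 8 and 6 counts in replicates 1, 2 and 3. On fibronectin it had 74, 229 and 158 counts, on laminin 127, 346 and 188 counts, and with no coating 95, 247 and 156 counts. As CPM these were 4.19, 11.96 and 8.31 on fibronectin, 7.30, 16.6 and 10.9 on laminin, and 5.09, 15.6 and 9.42 with no coating, against 0.0604, 0.444 and 0.336 in suspension. No plated library came near a suspension library, and in all 4 groups replicate 1 was the lowest and replicate 2 the highest. Means were 8.15 ± 3.89 CPM on fibronectin, 11.6 ± 4.69 on laminin, 10.0 ± 5.26 with no coating and 0.280 ± 0.198 in suspension (SD, n = 3 each). The transcript rose by 4.83 ± 0.72 on the log2 scale on fibronectin, by 5.31 ± 0.70 on laminin and by 5.11 ± 0.71 with no coating.

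The few counts in suspension limit how well the size of the Cyp1a1 change is known. Over the summed libraries the ratio of CPM to suspension was 28.9 on fibronectin, with an exact 95% interval of 17.3 to 52.0, 41.6 on laminin, with 25.0 to 74.7, and 34.1 with no coating, with 20.5 to 61.3. These intervals cover counting error only. In batch 1, where suspension had a single count, the ratios were 69.4 on fibronectin (12.1 to 2776), 121 on laminin (21.3 to 4809) and 84.3 with no coating (14.8 to 3363). In batches 2 and 3 they lay between 24.7 and 37.4. Reads that fit both Cyp1a1 and its close relative Cyp1a2 cannot be judged from counts, but Cyp1a2 had 0 counts over the 12 libraries.

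Cyp1b1, the extrahepatic member of the CYP1 family, had 699, 855 and 559.9 CPM on fibronectin, 869, 930.4 and 657 CPM on laminin and 912, 887 and 625 CPM with no coating, against 243, 183 and 203 CPM in suspension. The lowest plated library, fibronectin 3, was still far above the highest suspension library, and replicate 3 was the lowest on each surface. Means were 705 ± 147 CPM on fibronectin, 819 ± 144 on laminin, 808 ± 159 with no coating and 209.6 ± 30.8 in suspension (SD, n = 3 each). The log2 changes were 1.79 ± 0.21 on fibronectin, 1.97 ± 0.21 on laminin and 1.97 ± 0.21 with no coating, and all 3 were called. Within batches the log2 ratio to suspension was largest in batch 2 on every surface, at 2.23, 2.35 and 2.28 on fibronectin, laminin and no coating, and smallest in batch 3, at 1.46, 1.69 and 1.62.

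Aldh3a1, an aldehyde dehydrogenase that removes reactive aldehydes, had 141, 178 and 184 CPM on fibronectin, 156, 204 and 210.3 CPM on laminin and 132, 190.5 and 199.8 CPM with no coating, against 100.2, 122 and 114 CPM in suspension. The plated libraries again lay above all suspension libraries, but by a smaller margin than those of the other 3 targets, and replicate 1 was the lowest in every group. Its means were 168 ± 23.5, 190.2 ± 29.9 and 174 ± 36.6 CPM on fibronectin, laminin and no coating, and 112 ± 11.04 CPM in suspension (SD, n = 3 each). The log2 changes were 0.61 ± 0.16, 0.76 ± 0.16 and 0.65 ± 0.16 on fibronectin, laminin and no coating, and all 3 were called. The fibronectin call ended when any single suspension or fibronectin library, laminin 2 or no coating 2 was left out, and with library size as the only scaling. The no coating call ended without any single suspension library or without no coating 2 or 3. Without replicate 3 the log2 changes were 0.56 ± 0.20 on fibronectin and 0.57 ± 0.20 with no coating, and neither passed. In the fit with the replicate number as a block, the changes were 0.61 ± 0.06 on fibronectin, 0.76 ± 0.06 on laminin and 0.64 ± 0.06 with no coating. All 3 passed there.

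**Figure D2:**
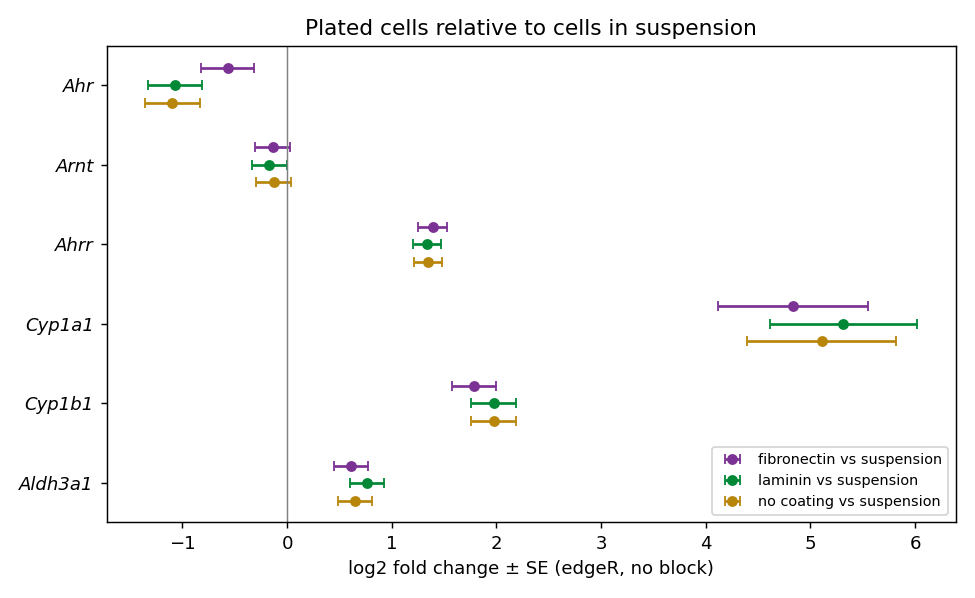
Log2 fold changes of the 6 genes in cells on fibronectin, laminin and no coating relative to suspension (x axis; bars, SE of the edgeR fit without a block). Ahr lay below 0, Arnt near 0 and the other 4 genes above 0 on all 3 surfaces, with Cyp1a1 between 4.83 and 5.31.

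The surfaces were then compared with each other to ask whether the coating goes with a difference in these genes. No gene of the group was called between any pair of surfaces, where 0.15% of genes tested were called for laminin against fibronectin, 0.18% for fibronectin against no coating and 0% for laminin against no coating. With the block the shares were 0.409%, 0.469% and 0%, and again no gene of the group was called. By unadjusted p under 0.05 in the block fit, 2 of the 6 genes were higher and 1 lower on laminin than on fibronectin, and 1 was higher on fibronectin than with no coating. The share of all genes at that threshold in the block fit is not given here, so nothing is read from these counts. Without the block, at an unadjusted p under 0.05, 0 of the 6 genes passed in each of these 3 comparisons, and DESeq2 likewise called 0. Of all 10020 genes, 300 had such a p without the block for laminin against fibronectin and 344 for fibronectin against no coating. For laminin against no coating, 0 of all 10020 genes were called by edgeR or by DESeq2, and 156 had an unadjusted p under 0.05.

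Ahr differed most evenly between surfaces. On laminin relative to fibronectin its log2 ratio was -0.52, -0.40 and -0.48 in batches 1, 2 and 3, and on fibronectin relative to no coating it was 0.53, 0.45 and 0.58. Laminin and no coating gave log2 ratios of 0.01, 0.05 and 0.10 within batches. The receptor transcript was thus higher on fibronectin than on either other surface in every batch. The fitted log2 differences were -0.50 ± 0.26 for laminin against fibronectin and 0.53 ± 0.26 for fibronectin against no coating. With the block they were -0.50 ± 0.14 and 0.53 ± 0.14 and were still not called.

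Cyp1a1 stood the other way round, higher on laminin than on fibronectin in each batch by log2 ratios of 0.80, 0.47 and 0.39, and lower on fibronectin than with no coating by -0.28, -0.38 and -0.18. Its fitted log2 differences without the block were 0.48 ± 0.45 and -0.27 ± 0.46, within the spread between libraries. In that fit the difference between fibronectin and no coating turned positive without fibronectin 1 or without no coating 2. With the block the Cyp1a1 differences were 0.50 ± 0.12 and -0.27 ± 0.12 and were not called. Cyp1b1 was likewise higher on laminin than on fibronectin in all 3 batches, by log2 ratios between 0.12 and 0.31, and its fitted difference was 0.18 ± 0.20. Aldh3a1 was higher on laminin than on fibronectin in all 3 batches, by log2 ratios between 0.15 and 0.20, with a fitted difference of 0.15 ± 0.16. In the block fit these differences were 0.18 ± 0.13 for Cyp1b1 and 0.14 ± 0.06 for Aldh3a1, and neither was called. Ahrr and Arnt differed by less: their log2 ratios between any pair of surfaces within a batch lay between -0.04 and 0.07.

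**Figure D3:**
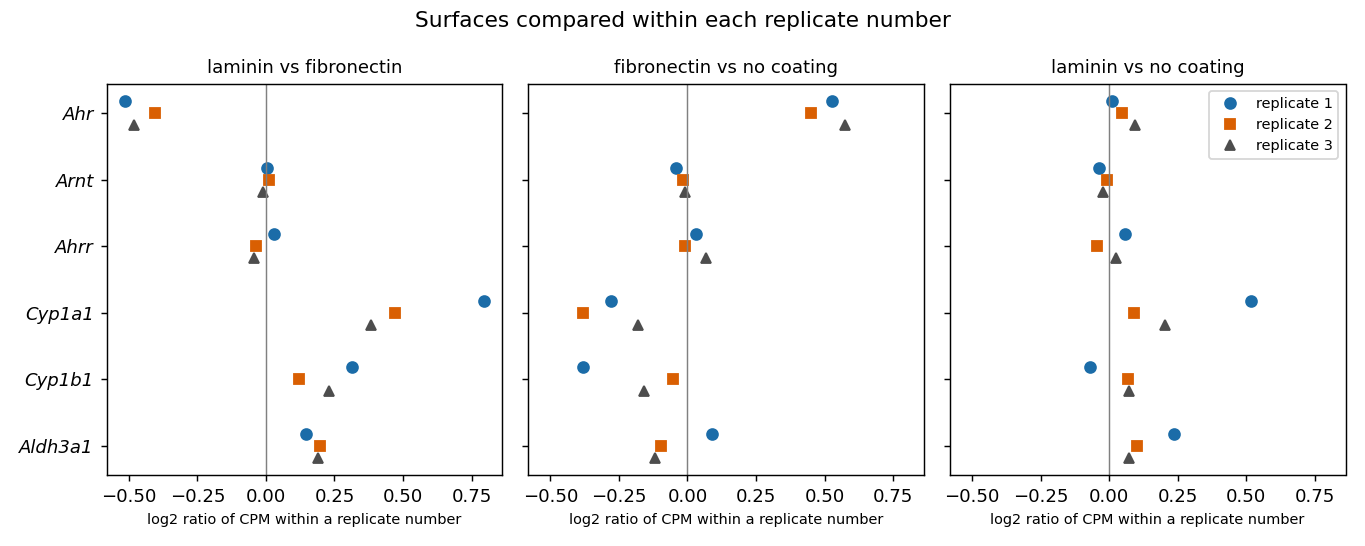
Log2 ratios of CPM between surfaces within each replicate number (x axes), for laminin against fibronectin, fibronectin against no coating and laminin against no coating. Ahr lay between -0.52 and -0.40 for laminin against fibronectin and between 0.45 and 0.58 for fibronectin against no coating, while Ahrr and Arnt clustered around 0.

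Over the 12 libraries, log2 CPM of Cyp1a1 had a Pearson correlation of 0.98 with Ahrr, 0.94 with Aldh3a1, 0.91 with Cyp1b1, -0.51 with Arnt and -0.76 with Ahr. Arnt had -0.41 with Ahrr and -0.15 with Cyp1b1. These points share the split between plated and suspended cells as well as the batches, so the values are descriptions. Among 8678 genes of at least 2 mean log2 CPM, the 5 most like Cyp1a1 over the 12 libraries were Nqo1 (24314), a quinone reductase, Sec11a, a signal peptidase subunit, Gja4, which encodes a gap junction connexin, Ahrr itself and Usp18, which removes the interferon-induced modifier ISG15. Their correlations with Cyp1a1 lay between 0.98 and 0.99. With a prior count of 0.5 in place of 2, the first 3 remained among the 5, and Gprc5a and Tmed2 took the other places. Ahrr and Cyp1a1 then left each other's lists. The level filter used the same prior and left 8659 candidates. Cyp1a1 lies near that filter, so its absence from the Ahrr list cannot be read. Ahrr lies well above the filter, and its correlation with Cyp1a1 fell with the smaller prior. It went from 0.985 to below the 0.980 of Tmed2, the lowest of the 5.

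**Figure D4:**
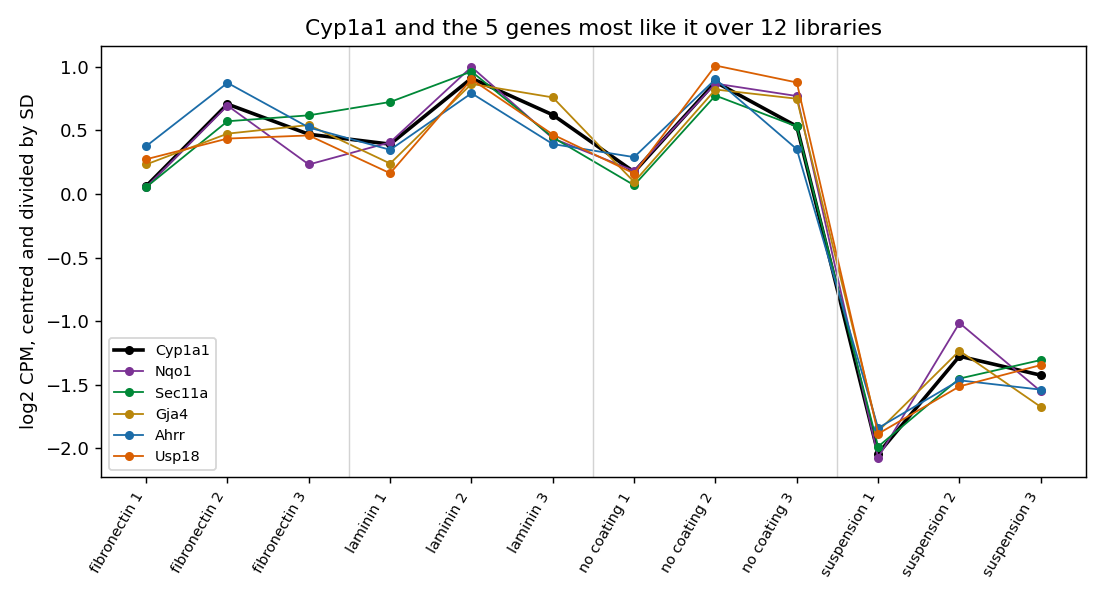
Log2 CPM of Cyp1a1 and the 5 genes most like it over the 12 libraries, each centred on its mean and divided by its SD (y axis), by library (x axis). All 6 genes were lower in each of the 3 suspension libraries than in any plated library.

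The genes most like Ahr were Zfp382, a zinc finger gene, Ccn4, which encodes a matricellular protein, and Uaca, with correlations of 0.99, 0.99 and 0.98. Those most like Arnt were the collagen gene Col5a2, Cfap418 and the adhesion gene Ncam1, between 0.95 and 0.96. For Ahrr they were Cyp1a1, Mmaa and Eepd1, all at 0.98. Cyp1b1 was most like Ypel2, the calcium-regulated transcription factor gene Nfatc2 and the adhesion receptor gene Adgre5, each at 0.97. For Aldh3a1 they were the replication protein gene Rpa2, the mitochondrial phosphate carrier gene Slc25a3 and the guanine synthesis gene Impdh2, between 0.97 and 0.98.

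Other targets of the receptor were taken from a list of 16 genes, of which 10 passed the filter. Compared with suspension 2 were called higher on fibronectin, 3 on laminin and 3 with no coating, and 0 were called lower on any surface (edgeR quasi-likelihood, Benjamini-Hochberg). DESeq2 gave the same counts, and at an unadjusted p under 0.05 1 gene was lower on laminin and 0 on the other surfaces. Their median log2 change was 0.28 on fibronectin, 0.24 on laminin and 0.21 with no coating, against 0.0010, -0.0091 and 0.0030 over all genes tested. With the block 5 were higher on fibronectin, 5 higher and 2 lower on laminin, and 3 higher and 1 lower with no coating. Over all genes tested the block fit called 16.6% higher and 12.1% lower on fibronectin, 22.4% and 20.8% on laminin, and 20.1% and 18.7% with no coating, and these shares stand behind the block counts of the lists below as well. Without the block the shares called higher were 6.61%, 12.1% and 8.48% on fibronectin, laminin and no coating. Those called lower were 3.06%, 6.96% and 4.1%. They stand behind the other edgeR counts of the lists. An unadjusted p under 0.05 was found without the block for 2697, 3577 and 3201 of 10020 genes, in either direction. Cyp1a2, Cyp2s1, Gsta2 and Serpinb2 had between 0 and 5 counts over the 12 libraries.

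Nqo1, which reduces quinones and answers to the receptor and to the oxidative stress factor NRF2, had 728, 1020.2 and 825 CPM on fibronectin, 890.0, 1192 and 936 CPM on laminin and 788, 1100.0 and 1097 CPM with no coating, against 281, 449 and 355 CPM in suspension. Every plated library exceeded every suspension library. It rose by 1.28 ± 0.20, 1.47 ± 0.20 and 1.47 ± 0.20 on the log2 scale on fibronectin, laminin and no coating (edgeR quasi-likelihood, Benjamini-Hochberg adjusted p = 0.00281, 0.000906 and 0.00104). Across the alternative settings the adjusted p stayed at 0.0194 or below.

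Xdh, the xanthine dehydrogenase gene, had 80.4, 68.1 and 70.5 CPM on fibronectin, 87.5, 65.5 and 73.6 CPM on laminin and 76.3, 60.8 and 69.6 CPM with no coating, against 58.2, 42.0 and 47.4 CPM in suspension. It rose by 0.61 ± 0.15, 0.62 ± 0.15 and 0.51 ± 0.15 on the log2 scale (edgeR, adjusted p = 0.0256, 0.0156 and 0.0452). The laminin call ended without suspension 2 or 3 (edgeR, adjusted p up to 0.0658 over the settings tried), and the fibronectin call without suspension 2 or 3 or fibronectin 1 or 3 (up to 0.105). The no coating call ended without suspension 2 or 3, any single fibronectin library or any single no coating library (up to 0.147). All 3 ended without replicate 3. With no coating it also ended with library size as the only scaling and without the filter on low counts. In the block fit all 3 Xdh changes passed (edgeR, adjusted p = 7.55e-05, 5.39e-05 and 0.000198 on fibronectin, laminin and no coating). Slc7a5, which carries tryptophan into cells, rose by 0.36 ± 0.10 on laminin and 0.40 ± 0.10 with no coating (edgeR, adjusted p = 0.0356 and 0.0281), and on fibronectin stood at 0.33 ± 0.10, which did not pass (edgeR, adjusted p = 0.0681) but did with the block (0.00783) and without no coating 3. Its laminin call ended without any single suspension library, fibronectin 1, laminin 2 or 3, or no coating 2, and without the filter on low counts. Its no coating call ended without any single suspension library or no coating 2 or 3. Both ended with library size as the only scaling, and both passed in the block fit (edgeR, adjusted p = 0.00368 on laminin and 0.00274 with no coating).

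The other listed targets did not pass without the block. The UDP-glucuronosyltransferase genes Ugt1a6 and Ugt1a7c share exons of a single locus, so reads may be split between them, and their 26058 and 25330 counts cannot be taken as separate measurements. Both are in the list's medians, and both are among the 5 genes called higher with the block on fibronectin and the 5 on laminin. Their log2 changes lay between 0.16 and 0.30. The prostaglandin synthase gene Ptgs2 and the growth factor gene Ereg stood at -0.97 and -0.93 on laminin, and both passed as lower there with the block only (edgeR, adjusted p = 0.0471 and 0.0171).

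**Figure D5:**
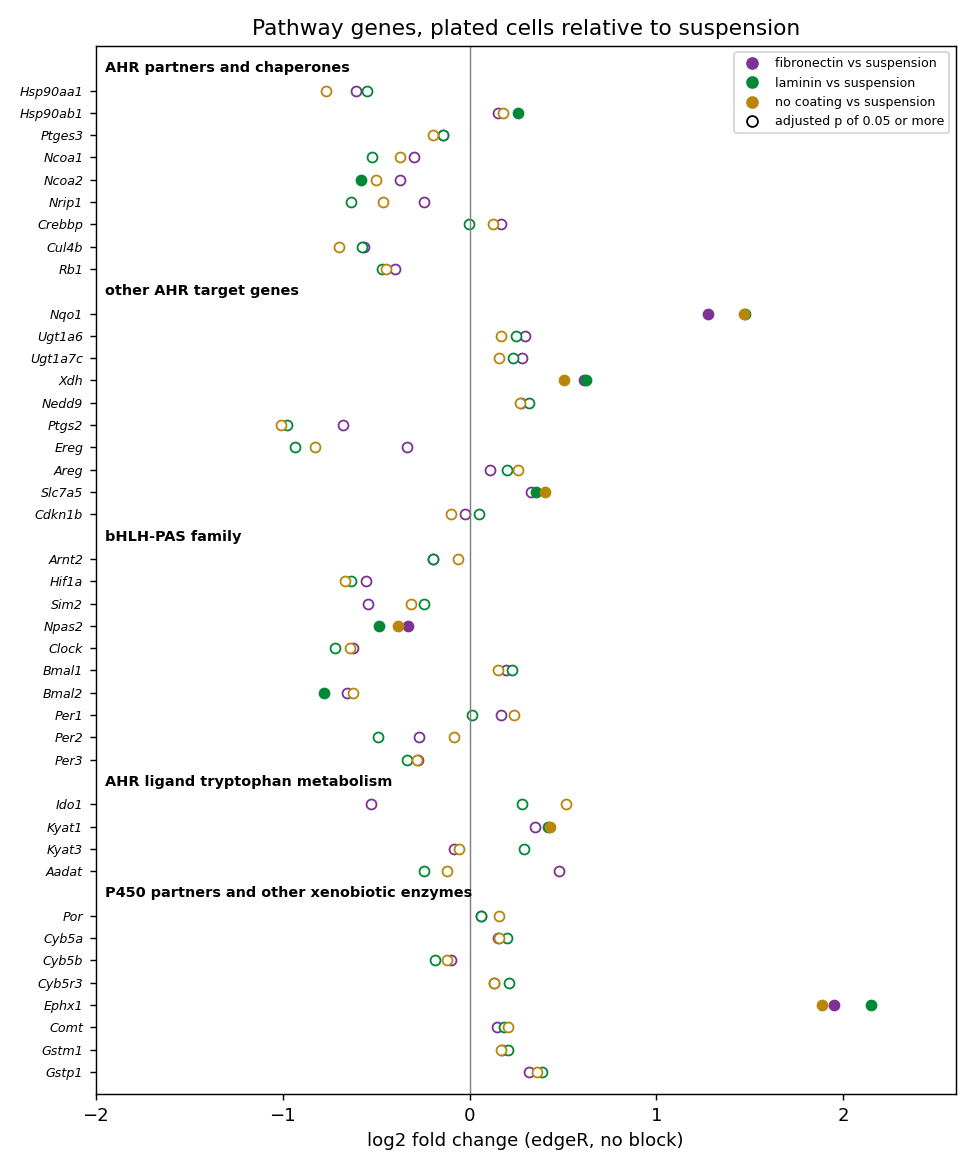
Log2 fold changes relative to suspension (x axis) of tested genes of 5 pathway lists in cells on fibronectin, laminin and no coating. Filled points passed an adjusted p of 0.05 in the edgeR fit without a block; Nqo1 and Ephx1 lay above 1 on all 3 surfaces.

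Enzymes that work beside the P450s were represented by 9 listed genes, of which 8 were tested. Ephx1 encodes the microsomal epoxide hydrolase, which converts the epoxides made by CYP1 enzymes. Ephx1 had 3.34, 2.77 and 3.89 CPM on fibronectin, 3.39, 4.46 and 3.81 CPM on laminin and 3.64, 3.09 and 2.90 CPM with no coating, against 0.785, 0.998 and 0.840 CPM in suspension. Every plated library exceeded every suspension library, and the surfaces overlapped each other. In suspension Ephx1 had only 13, 18 and 15 counts in replicates 1, 2 and 3. It rose by 1.95 ± 0.21, 2.15 ± 0.20 and 1.89 ± 0.21 on the log2 scale (edgeR, adjusted p = 0.000199, 7.2e-05 and 0.000231), and the adjusted p stayed at 0.0085 or below across the settings tried. By edgeR without the block, Ephx1 was the single gene of this list called on each surface. DESeq2 called 1 gene of the list higher on each surface and 1 lower on laminin. With the block 2 were higher on fibronectin, 6 higher and 1 lower on laminin, and 3 higher with no coating. Por, the reductase that feeds electrons to all microsomal P450s, stood at 0.06 ± 0.10 on laminin and did not pass.

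The chaperones and coactivators of the receptor were a list of 12 genes, of which 10 were tested. On fibronectin and with no coating 0 were called (edgeR; 1 and 2 lower at an unadjusted p under 0.05; DESeq2 0 and 1 lower). On laminin 1 was called higher and 1 lower (1 higher and 4 lower at an unadjusted p under 0.05, DESeq2 0 higher and 3 lower). The 2 called by edgeR were the chaperone gene Hsp90ab1 at 0.26 ± 0.08 and the coactivator gene Ncoa2 at -0.58 ± 0.16 (edgeR, adjusted p = 0.0492 and 0.0306). The Hsp90ab1 call ended without any single suspension or fibronectin library, without laminin 2 or 3, no coating 2 or replicate 3, with library size only, without the filter and with DESeq2. The Ncoa2 call ended without any single suspension library or laminin 2 or 3. In the block fit both laminin changes passed (edgeR, adjusted p = 0.00196 for Hsp90ab1 and 0.00439 for Ncoa2). Hsp90aa1, the paralog of Hsp90ab1, stood at -0.61 ± 0.43, -0.55 ± 0.43 and -0.77 ± 0.43 on fibronectin, laminin and no coating and did not pass; in the block fit the change with no coating passed (edgeR, adjusted p = 0.0238) and the others did not. With the block 1 gene was higher and 1 lower on fibronectin, 1 higher and 5 lower on laminin, and 1 higher and 6 lower with no coating, against shares of all genes of 12.1%, 20.8% and 18.7% called lower. The list's median log2 change was -0.27, -0.49 and -0.41 on the 3 surfaces.

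Relatives of the receptor in the bHLH-PAS family were a list of 16 genes, of which 10 were tested. The PAS-domain genes Per1, Per2 and Per3 were counted among these. On all surfaces 0 were called higher by edgeR or DESeq2, and at an unadjusted p under 0.05 1 was higher on laminin and 0 elsewhere. By edgeR 1, 2 and 1 were called lower on fibronectin, laminin and no coating. Npas2, a partner of BMAL1 in the circadian clock, fell by 0.33 ± 0.09, 0.49 ± 0.09 and 0.38 ± 0.09 on the log2 scale (edgeR, adjusted p = 0.0419, 0.00527 and 0.0202). Its fibronectin call ended without any single suspension or fibronectin library, laminin 1 or 2, or no coating 2, and without the filter. Its no coating call ended without suspension 1 or 2 or no coating 2 or 3, and both ended without replicate 3. In the block fit Npas2 passed on every surface (edgeR, adjusted p = 0.00314, 0.000285 and 0.0013 on fibronectin, laminin and no coating). Bmal2, another clock partner, fell by 0.78 ± 0.21 on laminin (edgeR, adjusted p = 0.0291), a call that ended without suspension 1 or 3, laminin 2 or 3, or replicate 3. In the block fit Bmal2 passed on laminin (edgeR, adjusted p = 0.00142). It stood at -0.66 ± 0.21 on fibronectin and -0.63 ± 0.21 with no coating, which passed with the block (edgeR, adjusted p = 0.00472 and 0.00483) and with DESeq2. Hif1a, the hypoxia factor that also pairs with ARNT, stood at -0.55, -0.64 and -0.67 and did not pass without the block; with it the laminin and no coating changes passed as lower (edgeR, adjusted p = 0.0283 and 0.0242). With the block 5, 6 and 5 genes of this list were lower and 0, 1 and 1 higher on fibronectin, laminin and no coating, against 12.1%, 20.8% and 18.7% of all genes called lower with it. Per2 and Per3 were among those lower on fibronectin and laminin, and Per3 with no coating, where Per1 was the gene called higher. Without the block 3.06%, 6.96% and 4.1% of all genes were called lower.

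Enzymes that turn tryptophan into receptor ligands were also listed. Of 10 genes 4 were tested, and on fibronectin 0 were called (edgeR; 1 higher at an unadjusted p under 0.05; DESeq2 0). Tdo2, Kmo and Kynu had 0 counts over the 12 libraries. Kyat1, a kynurenine aminotransferase gene, rose by 0.42 ± 0.11 on laminin and 0.43 ± 0.11 with no coating (edgeR, adjusted p = 0.0291 and 0.0328). The first call ended without any single suspension library, laminin 2 or 3, or replicate 3, and the other without any single suspension library, fibronectin 1, no coating 2 or 3, replicate 3 or the filter. Both ended with library size only, and both passed in the block fit (edgeR, adjusted p = 0.00922 on laminin and 0.0102 with no coating). On fibronectin Kyat1 stood at 0.35 ± 0.11 and did not pass without the block but did with it (edgeR, adjusted p = 0.0284). Ido1, the enzyme that opens the kynurenine path, had only 92 counts over the 12 libraries. It stood at -0.53 ± 0.51 on fibronectin, 0.28 ± 0.46 on laminin and 0.52 ± 0.45 with no coating and passed nowhere.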

How the data were processed

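The 12 libraries came from total RNA of plated or suspended progenitor cells and were made with a stranded total RNA kit per the labels' protocols. The authors deposited raw read counts per Entrez gene, 1 file per library. The submitters' processing notes name rn4 as genome build. The sources used here give no aligner, counter, annotation or strand setting. Overlapping antisense genes cannot be judged. Of 16924 identifiers, 16761 matched a symbol in the RefSeq table of GRCr8.

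CPM were computed from library totals. edgeR 4.0.16 in R 4.3.3 was fitted to all 12 libraries (filterByExpr, TMM, group means, quasi-likelihood test, Benjamini-Hochberg over 10020 genes, threshold 0.05). The SE is the log2 change divided by the root of F. Within-batch ratios add 0.5 counts. Log2 CPM for correlations used TMM and a prior count of 2. The fit was tested on simulated data. DESeq2 1.42.0 was an alternative.

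The labels give libraries of 1 replicate number a shared batch, so the numbers pair them. Deviations from group means had a median correlation of 0.41 over 18 same-batch pairs of libraries and -0.12 over 36 others.

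The members and lists were chosen with earlier results of these data known. From each list, called genes were named, up to 6 by smallest p, and some uncalled genes were named after their values were seen. Likeness was the Pearson correlation over the 12 libraries. 1 gene of the lists is counted but not reported here by name.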

Additional observations from a re-analysis of the deposited data

How the results depend on the processing

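Of 612 values of the 6 genes under other settings, 552 kept their direction and side of the threshold, 23 lost a call, 3 gained one and 34 changed sign. All 34 were differences between surfaces, none called with or without the change; the 306 values against suspension kept their sign. Leaving out libraries, the log2 differences that changed sign ranged, for laminin against fibronectin, from -0.17 to 0.11 in Arnt and -0.14 to 0.044 in Ahrr. For fibronectin against no coating they ranged from -0.15 to 0.14 in Arnt, -0.050 to 0.18 in Ahrr, -0.65 to 0.21 in Cyp1a1 and -0.19 to 0.061 in Aldh3a1. For laminin against no coating they ranged from -0.19 to 0.23 in Ahr, -0.18 to 0.11 in Arnt, -0.10 to 0.12 in Ahrr, -0.16 to 0.69 in Cyp1a1, -0.17 to 0.15 in Cyp1b1 and -0.041 to 0.23 in Aldh3a1. With library size only, Arnt stood at 0.0015 for laminin against fibronectin and Ahrr at 0.010 for laminin against no coating; for fibronectin against no coating Arnt stood at 0.0010 with DESeq2 and 0.0025 without the filter. The calls lost were those of Ahr on laminin and no coating and of Aldh3a1 on fibronectin and no coating. With the replicate block, 2872 genes were called on fibronectin, 4333 on laminin and 3889 with no coating against suspension (969, 1905 and 1261 without it), 41 for laminin against fibronectin (15 without it) and 47 for fibronectin against no coating (18 without it). DESeq2 called 45 and 53 in these last comparisons. Leaving out 1 library or replicate 3 gave 412 to 1304, 797 to 2488 and 537 to 1459 genes on fibronectin, laminin and no coating against suspension, 7 to 20 for laminin against fibronectin, 10 to 22 for fibronectin against no coating, and 0 for laminin against no coating throughout. The cause was not tested. Of the calls on fibronectin, laminin and no coating against suspension, 68.3%, 63.4% and 67.4% were higher, 53.9%, 54.8% and 54.3% with library size only, and 46.5%, 45.4% and 43.1% without replicate 3. The block changed the calls of Ahr on fibronectin and Arnt on laminin and no other call of the 6 genes. Depth limits Cyp1a1, with 15 counts over the 3 suspension libraries.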
